A study of Mus musculus with 4 samples.

Results

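The genes described here are 10 that are linked to the 2-cell embryo, to naive stem cells or to silenced proviruses: Pramel6 and Pramel7, Usp17la and Usp17lc, Tdpoz1 and Tdpoz3, Zfp352, Zfp809, Tcstv3 and AF067063. A gene was taken as measured where the array annotation gave a probe set that symbol and no other. Each of the 10 genes had exactly 1 such probe set, 10 of 35556 on the array. Another 5 probe sets carried the symbol of a member together with those of further family copies and were left out.

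The arrays hold total RNA of E14 cells, a mouse embryonic stem cell line. The cells grew in serum and leukemia inhibitory factor on embryonic fibroblasts whose division had been stopped with mitomycin C, so RNA of feeder cells can be present in both groups. There were 4 one-colour Affymetrix arrays, 2 for the untreated group and 2 for the group that received valproic acid (VPA) at 0.5 mM. VPA, a branched-chain fatty acid, blocks histone deacetylases, the enzymes that take acetyl groups off histones. Both groups carry the same time label of 4 h. The series asks what a low dose does to gene expression within that time. Nothing in the labels says that the replicates came from separate cultures, so the p-values measure only the spread between these arrays. Values are log2 signals after RMA, the method that corrects background, equalises the distributions of the arrays and gives 1 value per probe set. A difference of 1 on this scale is a doubling, and differences are given as VPA minus untreated.

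After fertilisation the mouse genome is first switched on in force at the 2-cell stage, when a burst of genes and endogenous retroviral elements is transcribed and soon silenced again. A rare and passing state of embryonic stem cells re-expresses part of that programme. Tdpoz1 and Tdpoz3 (proteins with a TRAF-like and a POZ domain), Zfp352 (a zinc finger protein), Tcstv3 and AF067063 (of the 2-cell-stage variable group) and the Usp17l deubiquitinases are known from it. Pramel6 and Pramel7 belong to the PRAME-like family of leucine-rich repeat proteins and are known from the inner cell mass and naive stem cells, where Pramel7 directs the DNA methylation cofactor Uhrf1 to degradation. Zfp809 stands apart in role. It is a KRAB zinc finger repressor that recruits Trim28 to proviruses, and it is not a marker of the 2-cell state.

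With VPA, 9 of the 10 genes had a lower mean and 1, Zfp352, had a higher one, where 48.2% of all probe sets had a lower and 51.7% a higher mean. The largest differences were those of Usp17lc, at −0.47 ± 0.19 (SE, 2 arrays per group), and Pramel7, at −0.43 ± 0.13, which leave 72.4% and 74.3% of the untreated signal. None of the 10 passed the test. In limma with Benjamini-Hochberg adjustment over all probe sets their adjusted p ran from 0.499 to 0.937, and 0 of 35556 probe sets (0%) were called, with a smallest adjusted p of 0.462. At an unadjusted p under 0.05, 1 of the 10 was lower (Pramel7) and 0 were higher, against 3.43% and 5.76% of all probe sets. For 6 of 10, both VPA arrays lay below both untreated arrays, and for 0 both lay above, against 18.7% and 21.7% of all probe sets. The median difference was −0.20 for the 10 genes and 0.0078 for all probe sets. None of the 10 lay at least 1.5-fold lower without overlap, a distance that 0.768% of probe sets reached downward. The members were proposed when results of these data were already known, so these counts describe them and support nothing further. In bulk RNA a lower signal from fewer 2-cell-like cells and one from less RNA per cell cannot be told apart.

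**Figure D1:**
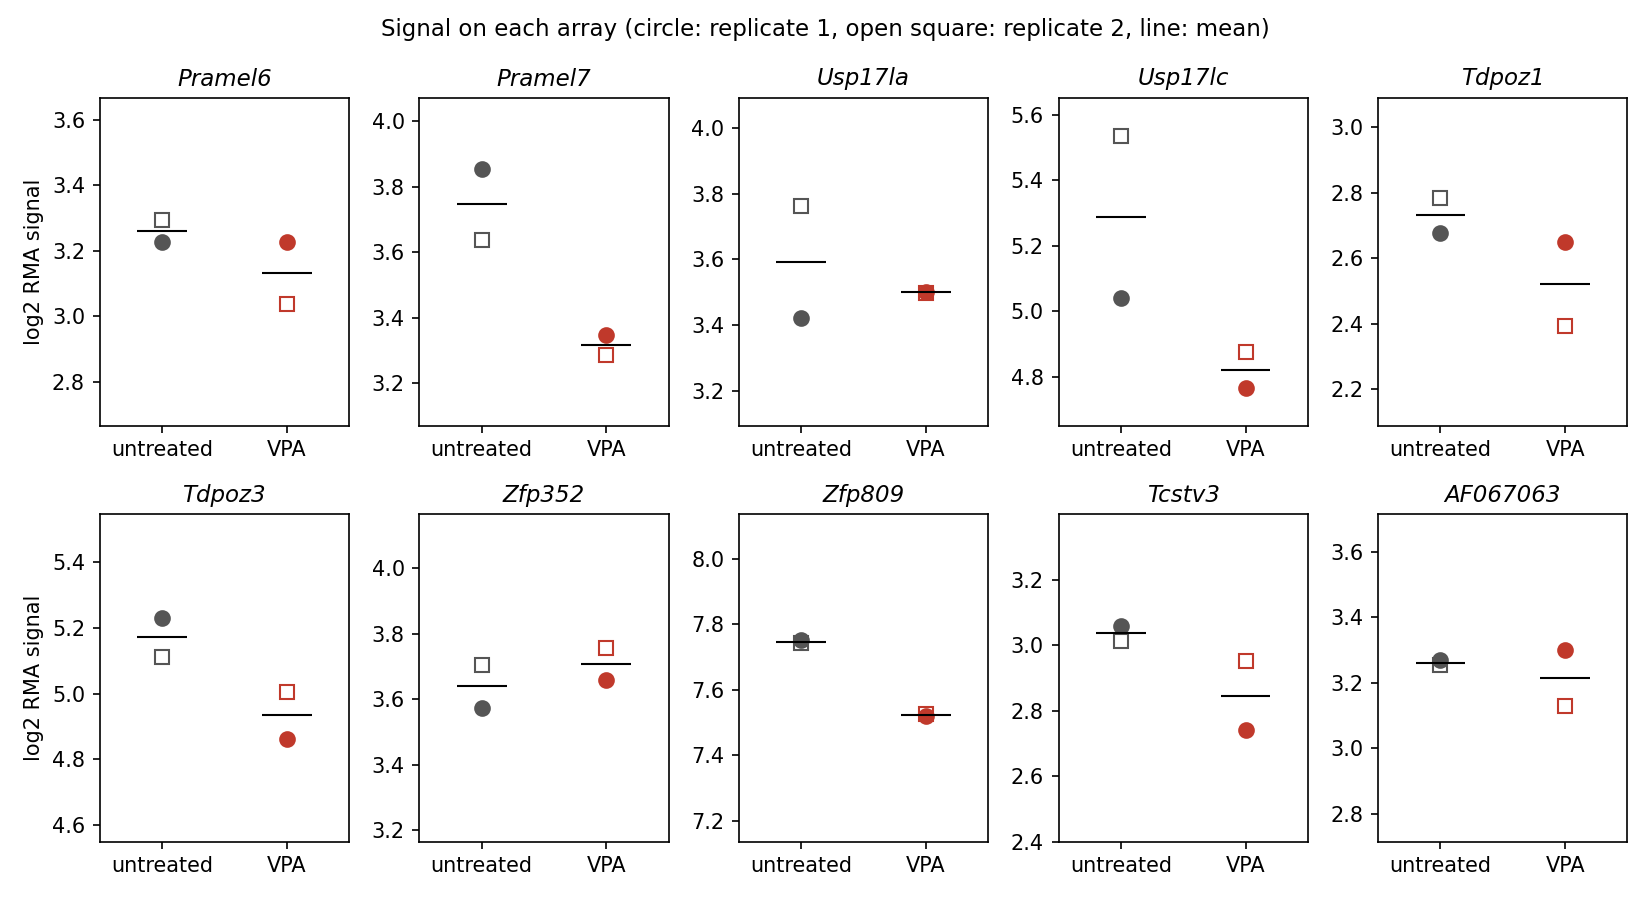
Log2 RMA signal of the 10 genes on each of the 4 arrays; grey marks are untreated and red marks VPA arrays, circles are replicate 1, open squares replicate 2 and lines the group means, and each panel spans 1 log2 unit. Pramel7, Usp17lc, Tdpoz1, Tdpoz3, Zfp809 and Tcstv3 have both VPA arrays below both untreated arrays, and the other 4 overlap.

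Most of the genes gave dim signals, which bears on how their differences can be read. No detection calls were used here, so 1210 probe sets of olfactory and vomeronasal receptors, genes with no known work in stem cells, served as a reference for signal near background. Their mean signals had a median of 2.53 and a 90th percentile of 2.96. In untreated cells 9 of the 10 genes lay at or above the 90th percentile of the receptors. Tdpoz1 lay below it, at percentile 75.0, and with VPA at 49.3. Tcstv3 lay at 91.2 and with VPA at 85.1. Pramel6 and AF067063 both lay at 94.8 in untreated cells, and Usp17la, Zfp352 and Pramel7 between 98.1 and 98.8. With VPA, Pramel7 lay at 96.0. Usp17lc and Tdpoz3 both lay at 99.9, and Zfp809 was above every receptor probe set. A place above most receptor probe sets is no detection call and does not by itself show that a gene was expressed. Against all probe sets, 7 of the 10 lay below the median signal over all arrays, and 3 lay above it: Tdpoz3, Usp17lc and Zfp809. Probe sets bind with different strength, so these positions give no order of RNA amounts between genes. The differences of the receptor probe sets had a median of −0.0019 and ran from −0.17 at the 10th to 0.16 at the 90th percentile. Their 5th percentile was −0.22, and the 10th percentile over all probe sets was −0.25. Of the receptor probe sets, 13.9% lay lower and 14.2% higher with VPA without overlap.

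**Figure D2:**
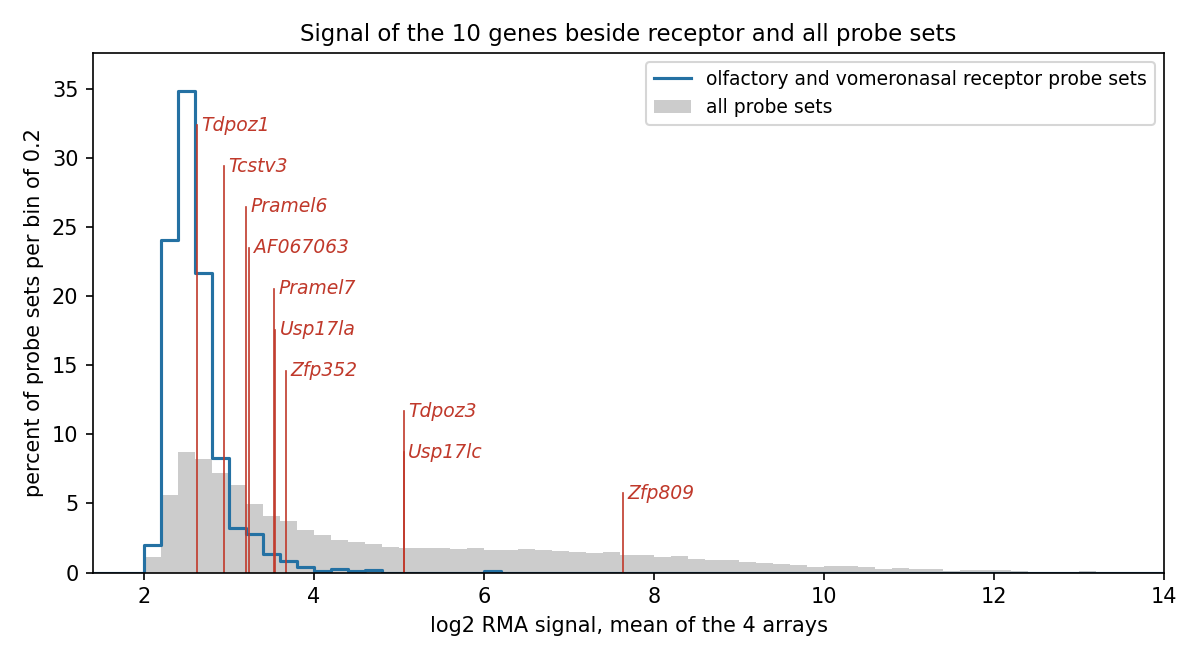
Percent of probe sets per bin of 0.2 against the log2 RMA signal averaged over the 4 arrays, for all probe sets (grey bars) and olfactory and vomeronasal receptor probe sets (blue line); red lines mark the 10 genes and their heights carry no value. Tdpoz1 lies within the main receptor peak, Tcstv3 at its upper edge, and Zfp809 far to the right of it.

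The PRAME-like genes Pramel6 and Pramel7 are direct neighbours among the protein-coding genes of chromosome 2 in the RefSeq table of GRCm38.p6. Their start regions are shown because the genes are neighbours of 1 family, yet differed in how clearly the groups separated. The sequences are the 250 bases before each RefSeq start, at chr2:87506315-87506564 on the plus strand for Pramel6 and chr2:87492419-87492668 on the minus strand for Pramel7, read 5′ to 3′ along the gene. Capitals mark a match to TGATTNAAT, 9 letters from the binding motif reported for Dux, the factor that switches on the 2-cell programme, found here on the opposite strand.
Pramel6: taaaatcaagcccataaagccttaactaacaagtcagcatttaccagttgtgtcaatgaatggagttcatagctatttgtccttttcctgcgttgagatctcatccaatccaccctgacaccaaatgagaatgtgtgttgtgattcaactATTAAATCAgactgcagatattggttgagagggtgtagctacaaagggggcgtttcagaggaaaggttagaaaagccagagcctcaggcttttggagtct
Pramel7: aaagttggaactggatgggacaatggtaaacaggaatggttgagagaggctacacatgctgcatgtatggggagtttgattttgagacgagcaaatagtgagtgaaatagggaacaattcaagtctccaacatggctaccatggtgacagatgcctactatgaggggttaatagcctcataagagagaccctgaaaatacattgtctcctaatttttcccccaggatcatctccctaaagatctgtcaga
The match in Pramel6 lies from base −100 to −92 before the start. Of 32851 RefSeq windows of 300 bases (250 before to 50 after a start), 0.718% hold this motif on either strand. The Pramel7 window holds none of the 4 motifs searched, the others being TTCNNNGAA (a STAT-like site, which reads the same on both strands, in 8.3% of windows), GGGCGG (35.7%) and TATAAA (13.6%). Both strands were searched, and a match of letters is no evidence of binding. The longest run of bases common to both windows was 10.

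Pramel7 (probe set 10484669) measured 3.86 and 3.64 on untreated replicates 1 and 2, and 3.35 and 3.29 on VPA replicates 1 and 2. Both VPA arrays lay below both untreated arrays, by at least 0.29. The group means were 3.75 ± 0.15 and 3.32 ± 0.044 (SD, n = 2), a difference of −0.43 with a 95% interval from −0.75 to −0.10 (limma, unadjusted p = 0.0196, adjusted p = 0.499). Of all probe sets, 2.7% had a lower difference. Pramel7 was the only 1 of the 10 genes whose interval left out 0 before adjustment.

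Pramel6 (10473543) measured 3.23 and 3.29 in untreated cells and 3.23 and 3.04 with VPA. The lower untreated array minus the higher VPA array was −0.0018, so the groups only just overlapped. After a second quantile normalization they did not, with untreated replicate 1 at 3.231 and VPA replicate 1 at 3.226. The difference was −0.13 ± 0.12 (SE, 95% interval −0.44 to 0.19, adjusted p = 0.790 in limma). It was −0.033 without VPA replicate 2 and −0.22 without VPA replicate 1.

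The rest of the family lay on both sides of 0. Of the other 15 genes whose symbols start with Pramel, Prame or Oog and that have a probe set of their own, 7 had a lower and 8 a higher mean, with a median of 0.018. At an unadjusted p under 0.05, 0 were lower and 1 higher, beside 3.43% and 5.76% of all probe sets. The higher one was Pramel13, at 6.78 and 6.78 in untreated and 7.22 and 7.49 in VPA cells, a difference of 0.58 ± 0.14 (SE, adjusted p = 0.472 in limma). Pramel17 differed by −0.31 ± 0.12 and Pramel15 by −0.19 ± 0.11. Both were dim, at percentiles 91.7 and 82.9 of the receptor reference in untreated cells. None of the 15 passed the adjusted test.

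Pramel7 works on Uhrf1 and is known as a target of LIF and STAT3 signalling. Of 18 measured genes listed for that pathway, 8 had a lower and 10 a higher mean. At an unadjusted p under 0.05 there were 2 below and 1 above, against 3.43% and 5.76% of all probe sets, and 0 were called. Uhrf1 differed by 0.12 ± 0.12 (SE). Stat3, the transcription factor of the pathway, differed by 0.34 ± 0.11 and Nanog, a central pluripotency factor, by −0.48 ± 0.14. Gbx2, a STAT3 target, differed by −0.35 ± 0.12 and Rbx1, a RING subunit of cullin ligases, by −0.27 ± 0.12. Their adjusted p in limma lay between 0.503 and 0.800. Stat3 and Pramel7 differed in opposite directions, and Uhrf1 overlapped between the groups. These are RNA signals. The activity of STAT3 and the amount of Uhrf1 protein were not measured here, so the pathway itself was not tested. The lists share genes: Nanog counts here and again among the stem cell markers below, and Uhrf1 here and among the repressors below.

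The deubiquitinases Usp17la and Usp17lc (also called Dub1 and Dub2) are close copies that lie apart on chromosome 7. Their start regions are printed because they show how alike the copies are just before their starts. The 250 bases before the starts lie at chr7:104856766-104857015 for Usp17la and chr7:103416446-103416695 for Usp17lc, both on the plus strand of GRCm38.p6. Capitals mark TTCNNNGAA in both and TATAAA in Usp17lc.
Usp17la: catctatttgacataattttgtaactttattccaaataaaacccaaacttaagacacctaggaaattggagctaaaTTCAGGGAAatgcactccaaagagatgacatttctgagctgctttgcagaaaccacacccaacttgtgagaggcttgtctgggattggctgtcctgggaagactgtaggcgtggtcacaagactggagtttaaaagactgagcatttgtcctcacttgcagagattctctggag
Usp17lc: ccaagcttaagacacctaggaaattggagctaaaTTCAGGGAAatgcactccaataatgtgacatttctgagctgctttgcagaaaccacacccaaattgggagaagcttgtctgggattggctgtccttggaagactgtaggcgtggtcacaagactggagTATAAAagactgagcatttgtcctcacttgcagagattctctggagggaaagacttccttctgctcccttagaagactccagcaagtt
A local alignment of the 300-base windows placed 257 bases against each other, of which 95.3% were identical. A run of 49 bases was the same in both and occurred in 2 of the 32851 windows, these 2. Probe sequences were not used here, so how far either probe set also measures other copies was not tested.

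Usp17lc (10555789) measured 5.04 and 5.54 in untreated cells and 4.77 and 4.88 with VPA. The VPA arrays lay below both untreated arrays, and untreated replicate 2 stood 0.50 above untreated replicate 1. The means were 5.29 ± 0.35 and 4.82 ± 0.078 (SD, n = 2), a difference of −0.47 with a 95% interval from −0.96 to 0.029 (adjusted p = 0.551 in limma). Without untreated replicate 2 the difference was −0.22, and without untreated replicate 1 it was −0.72.

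Usp17la (10555894) measured 3.42 and 3.76 in untreated cells and 3.50 on each VPA array. The VPA arrays lay between the untreated ones. The difference was −0.093 ± 0.15 (SE, adjusted p = 0.888 in limma), and without untreated replicate 2 it turned to 0.077. The gap between the untreated arrays was larger than the difference between the groups.

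The 2 other family members with a probe set of their own, Usp17lb and Usp17ld, overlapped between the groups. Usp17lb measured 5.37 and 5.26 in untreated and 5.31 and 5.2 in VPA cells. Usp17ld gave a bright signal, 10.54 and 11.25 in untreated and 10.84 and 10.79 in VPA cells, and differed by −0.087 ± 0.25 (SE). Untreated replicate 2 was thus the highest array for Usp17la, Usp17lc and Usp17ld, and not for Usp17lb. All 4 family means were lower with VPA, and 2 of 4 without untreated replicate 2.

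Tdpoz1 and Tdpoz3 lie in a cluster of Tdpoz genes on chromosome 3, and Zfp352 lies between Dmrta1 and Elavl2 on chromosome 4. RefSeq windows were found for 7 of the 10 genes. Tdpoz1 and Zfp352 are printed because, apart from the Usp17l copies, their windows had the longest local alignment of any pair, 164 bases with 78.0% identity. The stretches are chr3:93676284-93676533 on the minus strand for Tdpoz1 and chr4:90218570-90218819 on the plus strand for Zfp352, in GRCm38.p6. Capitals mark their longest common run, of 17 bases.
Tdpoz1: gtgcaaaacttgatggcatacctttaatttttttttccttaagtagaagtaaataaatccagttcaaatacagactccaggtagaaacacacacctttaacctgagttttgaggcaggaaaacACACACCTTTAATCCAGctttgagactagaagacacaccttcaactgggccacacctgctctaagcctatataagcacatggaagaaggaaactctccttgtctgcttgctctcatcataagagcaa
Zfp352: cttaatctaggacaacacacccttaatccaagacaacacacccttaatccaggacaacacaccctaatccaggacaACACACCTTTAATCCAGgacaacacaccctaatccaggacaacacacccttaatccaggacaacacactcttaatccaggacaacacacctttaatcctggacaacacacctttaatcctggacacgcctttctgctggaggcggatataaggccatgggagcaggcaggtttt
The run occurred in 5 of 32851 windows on either strand. The 9 letters GACAACACA, read off the Zfp352 sequence, occurred 9 times in its window and 0 times in that of Tdpoz1, and 0.365% of windows held them on either strand. Repeats of this kind can raise the identity of an alignment. Neither window held any of the 4 motifs. The similarity was seen after the sequences were read, and it was tested against nothing.

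Tdpoz3 (10494003) measured 5.23 and 5.11 in untreated cells and 4.86 and 5.0 with VPA. The groups did not overlap, with 0.11 between them. The difference was −0.24 ± 0.12 (SE, 95% interval −0.54 to 0.069, adjusted p = 0.603 in limma).

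Tdpoz1 (10499963) measured 2.68 and 2.79 in untreated cells and 2.65 and 2.39 with VPA. The groups were separated by only 0.026, and VPA replicate 1 lay close to the untreated arrays. The difference was −0.21 ± 0.14 (SE, adjusted p = 0.691 in limma) and −0.080 without VPA replicate 2. At this signal, below the 90th percentile of the receptor reference, the arrays do not show whether Tdpoz1 was expressed. Tdpoz2 and Tdpoz8, the other family members with their own probe sets, differed by −0.025 ± 0.13 and −0.14 ± 0.18, and both overlapped between the groups.

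Zfp352 (10505914) measured 3.57 and 3.70 in untreated cells and 3.66 and 3.76 with VPA. It was the only one of the 10 genes with a higher mean, and the groups overlapped. The difference was 0.068 ± 0.12 (SE, 95% interval −0.23 to 0.37, adjusted p = 0.898 in limma).

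The 2-cell-stage variable genes Tcstv3 and AF067063 both lie on chromosome 13. Tcstv3 (10598146) measured 3.06 and 3.01 in untreated cells and 2.74 and 2.95 with VPA, without overlap. The difference was −0.19 ± 0.12 (SE, adjusted p = 0.690 in limma) and −0.085 without VPA replicate 1. AF067063 (10598154) measured 3.27 and 3.25 in untreated cells and 3.30 and 3.13 with VPA. VPA replicate 1 was its highest array and VPA replicate 2 its lowest. The difference was −0.047 ± 0.12 (adjusted p = 0.937), and without VPA replicate 2 it turned to 0.037.

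Zfp809 (10583825), the provirus repressor, stood farthest above the receptor reference and had the closest untreated replicates of the 10 genes. It measured 7.75 and 7.74 in untreated cells and 7.52 and 7.53 with VPA. The replicates differed by 0.0072 and 0.0055, and the groups by −0.22. Of all probe sets, 97.0% had a larger gap between the untreated arrays. limma draws the spread of each probe set towards that of the others, which gave an SE of 0.10, a 95% interval from −0.49 to 0.042 and an adjusted p of 0.579. Leaving out any 1 array kept the difference between −0.23 and −0.22. After a second quantile normalization the replicates lay 0.071 and 0.032 apart and the difference was −0.29. The mean VPA signal was 85.6% of the untreated one.

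**Figure D3:**
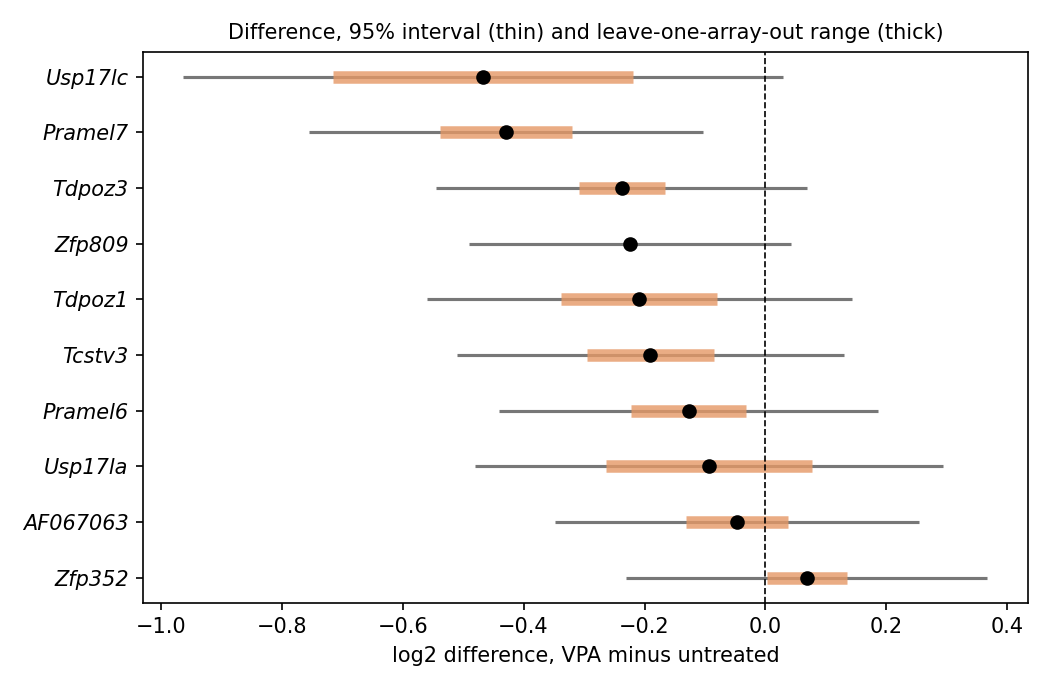
Log2 difference of each gene (VPA minus untreated; points), with the 95% interval of limma (thin lines) and the range of the difference when each of the 4 arrays was left out in turn (thick bars). The interval of Pramel7 alone leaves out 0 before adjustment for all probe sets, and the bars of Usp17la and AF067063 cross 0.

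A wider list of genes linked to the 2-cell state held genes on both sides of 0. Of its 45 names 27 had a probe set of their own, 8 of them among the 10 genes above. Of the other 19, 12 had a lower and 7 a higher mean, with a median of −0.025. At an unadjusted p under 0.05, 0 were lower and 3 higher, against 3.43% and 5.76% of all probe sets, and 0 were called. The groups did not overlap for 2 lower and 6 higher genes, against 18.7% and 21.7% of all probe sets. Of the latter, 2 were at least 1.5-fold higher, a distance 2.02% of all probe sets reached upward. Btg2, an antiproliferative gene with many roles outside the 2-cell state, measured 6.34 and 6.31 in untreated and 7.03 and 6.93 in VPA cells, a difference of 0.66 ± 0.11 (SE, adjusted p = 0.462 in limma). Usp26, a deubiquitinase, differed by 0.63 ± 0.24, and its arrays ran from 6.12 on untreated replicate 2 to 7.12 on VPA replicate 2. Obox6, an oocyte homeobox gene, measured 2.96 and 3.06 in untreated and 3.63 and 3.46 in VPA cells, a difference of 0.54 ± 0.12. Its untreated signal was dim, at percentile 90.6 of the receptor reference. Zscan4 and Dux genes were not analysed here, since no probe set carried 1 of their symbols alone.

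Repressors and activators of the 2-cell programme were listed separately. Of 34 measured repressors, 15 had a lower and 19 a higher mean, with a median of 0.026. After a second quantile normalization 22 of the 34 had a lower mean, and with an array left out 10 to 20 did. Before adjustment 1 was lower and 2 higher at p under 0.05, against 3.43% and 5.76% of all probe sets, and 0 were called. Chaf1b, a subunit of the chromatin assembly factor, measured 7.54 and 7.48 in untreated and 7.94 and 8.10 in VPA cells, a difference of 0.51 ± 0.12 (SE, adjusted p = 0.472 in limma). Rcor1, a corepressor that works with Kdm1a, differed by 0.31 ± 0.11 and Zmym2 by 0.41 ± 0.16. Atf7ip, a partner of the H3K9 methyltransferase Setdb1, differed by −0.32 ± 0.12. Hdac1, one of the enzymes VPA inhibits, differed by 0.14 ± 0.11. None of these passed the adjusted test.

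Of 11 measured genes listed as activators, 9 had a lower and 2 a higher mean, with a median of −0.19. For 7, both VPA arrays lay below both untreated arrays while for 0 both lay above, against 18.7% and 21.7% of all probe sets. At an unadjusted p under 0.05, 1 was lower and 0 higher, against 3.43% and 5.76%, and 0 were called. The list was chosen with earlier results of these data known, so its counts describe it and support nothing further. Nr5a2, a nuclear receptor, measured 8.13 and 7.96 in untreated and 7.45 and 7.56 in VPA cells, a difference of −0.54 ± 0.12 (SE, adjusted p = 0.472 in limma). Nelfa, a subunit of the negative elongation factor, differed by −0.30 ± 0.12 and Yap1, a coactivator of Hippo signalling, by −0.21 ± 0.12. Dppa3, a maternal factor, differed by −0.40 ± 0.21 with overlap between the groups, and Dppa2, which acts upstream of Dux, by −0.055 ± 0.10. Several of these genes, among them Nr5a2 and Tbx3, also work in the pluripotency network. Zfp281, 1 of the 7 lower without overlap, differed by −0.10 ± 0.11, and its role as an activator was not checked here.

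**Figure D4:**
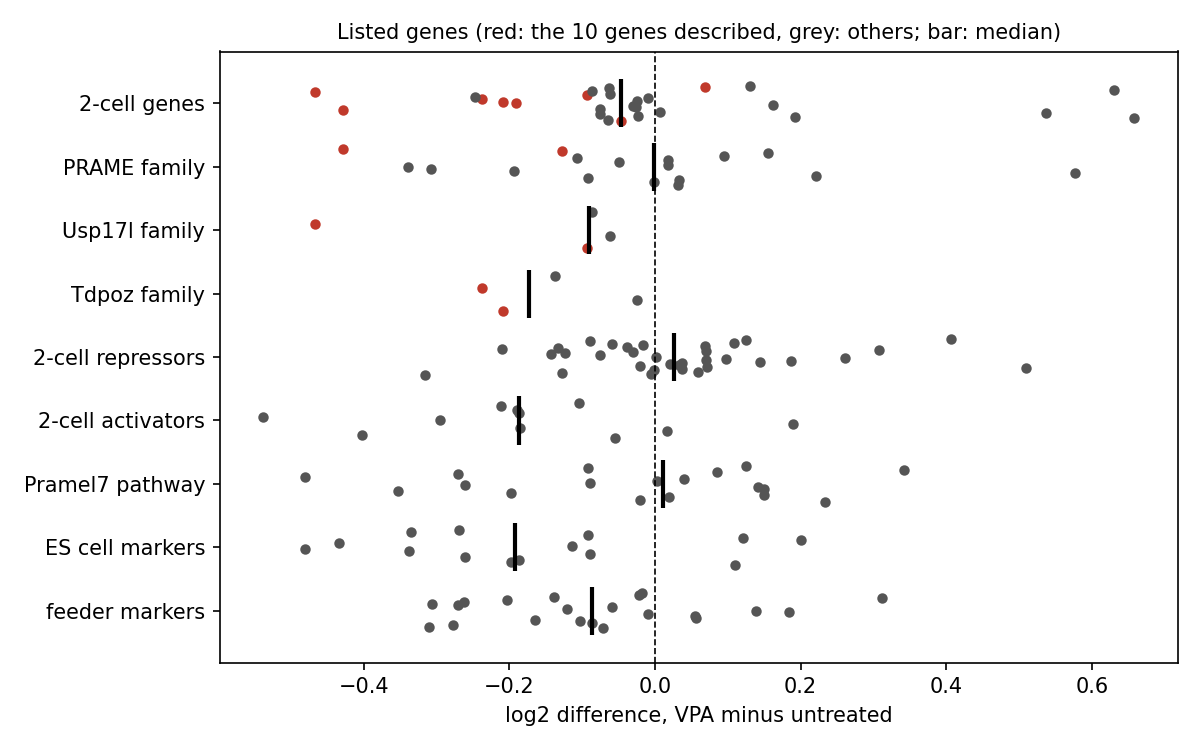
Log2 difference (VPA minus untreated) of every measured gene in 9 lists, with the 10 genes described above in red, other genes in grey and the median of each list as a black bar; vertical position within a list carries no value. The grey points of the 2-cell list lie around 0, with 3 above 0.5, while the medians of the activators and of the stem cell markers lie near −0.19.

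Stem cell and feeder markers were read on the same arrays. All 14 stem cell markers were brighter than every receptor probe set in untreated cells. Of these, 11 had a lower and 3 a higher mean with VPA, and the median was −0.19. Unadjusted p-values under 0.05 were found for 4 below and 0 above, against 3.43% and 5.76% of all probe sets, and 0 were called. Without overlap, 9 lay below and 1 above, against 18.7% and 21.7%. Both marker lists were chosen with earlier results of these data known, so their counts describe them and support nothing further. Pou5f1, which encodes Oct4, differed by −0.11 ± 0.14. Sall4 differed by −0.43 ± 0.11 (SE), Utf1 by −0.33 ± 0.12 and Lin28a by −0.34 ± 0.12. The summed linear signal of the markers was 21168 and 19383 in untreated and 19426 and 19816 in VPA cells, so these ranges overlapped. Of 21 feeder markers, 16 had a lower and 5 a higher mean, with a median of −0.086. Their summed linear signal was 3485 and 3652 in untreated and 3370 and 3394 in VPA cells, so both VPA sums lay below both untreated sums. Vim, Fn1 and Sparc were the brightest, at untreated means of 10.24, 9.98 and 9.14, so they weigh most in this sum. Vim and Fn1 overlapped between the groups, and which cells the RNA of these genes came from was not tested. Without overlap, 7 markers lay below and 2 above, against 18.7% and 21.7% of all probe sets. Sparc differed by −0.26 ± 0.11, Prrx1 by −0.27 ± 0.14, Ccdc80 by −0.31 ± 0.11 and Thy1 by 0.31 ± 0.12. Dim markers lay on both sides. In untreated cells Lum, higher without overlap, lay at percentile 1.9 of the receptor reference. Postn and Ccdc80, both lower without overlap, lay at 88.5 and 93.4. The part of either cell population in the differences of the 10 genes was not tested.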

How the data were processed

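The authors deposited log2 values made by RMA. The submitters' processing notes name Affymetrix Expression Console 1.1 for this step. The genome build of the array and the set of arrays normalized together are not given in the sources used here. Genes were named from the platform annotation, and all 10 matched a RefSeq gene of GRCm38.p6 by identifier. The number of arrays limits the precision.

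The values were tested as deposited in limma 3.58.1 (R 4.3.3; lmFit, eBayes) over all probe sets, two-sided, with treatment as the only term, Benjamini-Hochberg adjustment and a threshold of 0.05. There were 2 residual and 2.93 prior degrees of freedom. With 2 arrays per group the smallest p of an exact permutation test is 0.333. A listed gene was represented by its probe set of highest mean signal. The members and lists were chosen with earlier results of these data known. The text names all members, the up to 4 genes of smallest unadjusted p per list, and Pou5f1, Nanog, Uhrf1 and Hdac1. Dppa2, Lum, Postn, Usp17lb, Usp17ld, Tdpoz2, Tdpoz8, Tbx3, Vim, Fn1, Zfp281 and Oosp1 were added after their values were seen. The PRAME, Usp17l and Tdpoz families were collected by symbol after the annotation was seen, because a first PRAME list of 24 names matched only 7 genes (5 with a lower mean, 2 higher). Oosp1, 1 of these 5, carries no PRAME-family symbol and is not in the family collected later. The script was tested on simulated data. Promoter sequences are from RefSeq. A planned comparison of member proteins was not run, since protein sequences were not used here.

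Alternatives were a second quantile normalization, median centring, a filter on dim probe sets, 2 other settings of eBayes, the replicate number as a block, averaged probe sets and each array left out in turn.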

Additional observations from a re-analysis of the deposited data

How the results depend on the processing

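For the 10 genes the eBayes settings, the replicate block, averaged probe sets and the filter on dim probe sets repeat the main difference by construction. Only the p can move there. A direction could change only after a second quantile normalization, after median centring or with an array left out. Over all alternatives, those fixed ones included, 101 of 103 values kept their direction. The 2 that changed sign were Usp17la without untreated replicate 2 (0.077) and AF067063 without VPA replicate 2 (0.037). The smallest adjusted p of any of them was 0.396, and 0 probe sets were called by limma under every alternative, with 1827 to 4242 at an unadjusted p under 0.05. With each array left out, the difference ran from −0.22 to −0.033 for Pramel6, −0.54 to −0.32 for Pramel7, −0.26 to 0.077 for Usp17la, −0.72 to −0.22 for Usp17lc, −0.34 to −0.080 for Tdpoz1, −0.31 to −0.17 for Tdpoz3, 0.0021 to 0.13 for Zfp352, −0.23 to −0.22 for Zfp809, −0.30 to −0.085 for Tcstv3 and −0.13 to 0.037 for AF067063. The count of members lower without overlap was 6 on the deposited values. It was 7 after a second quantile normalization and 7 after median centring. With an array left out, where fewer arrays make overlap rarer, it ran from 6 to 8, and that of members higher from 0 to 2. The share of all probe sets was not counted under these settings, so these counts cannot be read as a result about the members. With the dimmer probe sets left out, only 3 of the 10 genes remained, Usp17lc, Tdpoz3 and Zfp809, all 3 lower without overlap, as were 19.1% of the probe sets kept. After a second quantile normalization, 22 of 34 repressors had a lower mean, against 15 on the deposited values. Genes with a lower mean numbered 3 to 6 of the first PRAME list, 2 to 4 of the Usp17l and 2 to 4 of the Tdpoz family with an array left out; the Usp17l count fell to 2 without untreated replicate 2 and the Tdpoz count to 2 without VPA replicate 1. Whether the replicate numbers pair the arrays is not stated in the labels, and the deviations of same-numbered arrays from their group means had a correlation of −0.097 across probe sets. With the replicate block, 0 probe sets were called by limma, and 2576 had an unadjusted p under 0.05 against 3269 without it. The block cannot change the difference of Pramel7, −0.43, and its adjusted p was 0.677. Among the 10 genes, signal over background limits Tdpoz1 and Tcstv3 most.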
